A study of Mus musculus with 2 samples.

Results

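Fibroblasts that held much Per2 and Cry1 mRNA were compared with fibroblasts that held little, within gates sorted on an Nr1d1 reporter. PER2 and CRY1 are repressor proteins of the circadian clock. The members were chosen by a rule on these 2 transcripts. Within each of 8 sort gates, every cell with at least 1000 genes detected was scored by the mean z-score of log2(CPM + 1) of Per2 and Cry1, where CPM is counts scaled to the library total. The top 25% of each gate formed the high cells and the bottom 25% the low cells. This gave 191 high and 191 low cells, 382 of the 768 cells in the series. Of the others, 385 lay in the middle and were not compared, and 1 cell with 868 genes was left out.

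All cells came from 1 line, NIH3T3-Rev-VNP1-H2B-iRFP, a derivative of the mouse embryonic fibroblast line NIH3T3. Its 2 reporters are the yellow fluorescent protein Venus, tied by its name to Nr1d1 (also called Rev-erb alpha), and an H2B histone tagged with iRFP, which fluoresces in the near infrared. The promoter that drives each is not given in the sources used here. High and low cells share both reporters, the serum medium, growth to 95% confluency without synchronization, trypsin release and DAPI exclusion of dead cells. Full-length single-cell libraries (FLASH-seq) were made on 2 plates of 384 wells. Plate 1 held the high RFP sort and plate 2 the low RFP sort, each in 4 Venus gates, called here bin 1 (dimmest) to bin 4 (brightest) by their median recorded Venus. Counts were summed over the high and over the low cells of each plate and gate, which gave 8 pairs of sums with 23 or 24 cells on each side. The sums held 17800248 to 21719146 counts. Because the pairs come from 2 plates of 1 line, with nothing in the labels on separate cultures, p-values measure the spread between pairs, which may be technical.

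In the mammalian clock, CLOCK and BMAL1 (the product of Arntl) bind E-box elements and switch on the Per, Cry and Nr1d genes. The PER and CRY proteins then return to the nucleus and repress CLOCK and BMAL1. REV-ERB alpha, from Nr1d1, competes with ROR proteins at RORE elements and represses Arntl, Nfil3 and Cry1, while DBP, TEF and HLF activate D-box elements. In tissues and in fibroblasts Nr1d1 and Dbp mRNA peak earlier in the cycle than Per2 mRNA, and Cry1 mRNA peaks last.

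Promoter sequence is shown for 4 genes whose elements this wiring names: a gene of the rule (Cry1), both other Period genes and Nr1d1. Each run is the 250 bases before an annotated transcription start, 5′ to 3′ on the gene's strand, from RefSeq on build GRCm38.p6. E-boxes (CACGTG) and D-boxes (TTATGTAA) are in capitals. Both motifs and the RORE core AGGTCA were searched on both strands, and the motifs do not overlap here.
Cry1, chr10:85185055-85185304, minus strand: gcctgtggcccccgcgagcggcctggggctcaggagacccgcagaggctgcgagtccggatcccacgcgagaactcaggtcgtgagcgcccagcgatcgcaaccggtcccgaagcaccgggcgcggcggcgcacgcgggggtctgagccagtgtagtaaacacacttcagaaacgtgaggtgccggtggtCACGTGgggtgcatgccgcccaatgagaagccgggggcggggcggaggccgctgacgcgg
Per3, chr4:151044666-151044915, minus strand: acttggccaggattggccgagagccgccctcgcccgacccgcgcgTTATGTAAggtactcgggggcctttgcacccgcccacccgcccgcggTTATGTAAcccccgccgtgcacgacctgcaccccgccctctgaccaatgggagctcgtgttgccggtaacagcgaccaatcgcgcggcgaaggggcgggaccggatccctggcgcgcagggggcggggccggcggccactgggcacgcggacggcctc
Per1, chr11:69098699-69098948, plus strand, the first of 2 starts: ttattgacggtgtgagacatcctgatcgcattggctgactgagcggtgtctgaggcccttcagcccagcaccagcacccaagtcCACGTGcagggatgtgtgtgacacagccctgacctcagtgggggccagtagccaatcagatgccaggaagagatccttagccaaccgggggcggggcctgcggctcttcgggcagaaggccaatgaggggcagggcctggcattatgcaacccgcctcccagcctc
Nr1d1, chr11:98775378-98775627, minus strand: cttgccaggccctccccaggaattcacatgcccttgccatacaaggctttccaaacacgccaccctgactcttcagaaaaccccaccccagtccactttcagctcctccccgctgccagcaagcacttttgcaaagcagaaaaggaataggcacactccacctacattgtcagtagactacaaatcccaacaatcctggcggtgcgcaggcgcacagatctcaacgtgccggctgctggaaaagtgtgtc
The Cry1 window held 1 E-box, starting 60 bases before the start. The Per3 window held 2 D-boxes, 205 and 158 bases before the start. The Per1 window held 1 E-box at 166 bases and 1 RORE core at 137 bases. The Nr1d1 window held none of the 3 motifs, which says only that these letters are not in this window. Of 27025 genes with a window of this length, 6.05% held the E-box, 0.862% the D-box and 13.8% the RORE core. Of the 11 E-box and D-box clock genes with a window, 4 held the E-box (Bhlhe41, Ciart, Per1 and Tef) and 1 the D-box (Per3). A match is a description of letters, not a bound site.

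The values that chose the cells are given as a description with no test. Per2 was at 0 counts in 154 of 191 low cells and 13 of 191 high cells, and Cry1 in 130 of 191 low cells and 0 of 191 high cells. Neither transcript was detected in 96 of the 191 low cells. Summed Per2 ranged from 10.2 to 35.3 CPM in the high cells (median 16.7) and from 0 to 3.69 CPM in the low cells (median 0.603). Summed Cry1 ranged from 25.01 to 43.4 CPM in the high cells (median 29.9) and from 0 to 6.76 CPM in the low cells (median 1.57). In the low cells Per2 was higher in the brighter gates, with 0.03 CPM in bin 1 and 3.41 CPM in bin 4 (means of 2 plates). Near the thresholds, the highest score among low cells of a gate lay between -0.91 and -0.46 and the next score above between -0.62 and -0.45. The lowest score among high cells lay between 0.32 and 0.70 and the next below between 0.30 and 0.69. Per2 and Cry1 were weakly related from cell to cell: within the gates their Spearman correlation over 95 or 96 cells ranged from 0.084 to 0.376, a description of sparse counts that share a library depth.

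No difference in recorded Venus between high and low cells was detected. The imaging Venus signal of the high cells was 0.00 ± 0.25 log2 units from that of the low cells (SD, n = 8 pairs, exact two-sided sign-flip permutation p = 0.984). Single pairs ranged from -0.24 to 0.59, and the highest value, in plate 1 bin 2, stood apart. In the other 7 pairs, with no test since that pair was left out for its value, the difference was -0.08 ± 0.09 for the imaging and -0.13 ± 0.08 for the detector signal (SD), lower in the high cells in 6 and in 7 of 7. In plate 2 alone both signals were lower in 4 of 4 pairs, at -0.09 ± 0.05 and -0.10 ± 0.06 (exact sign-flip permutation p = 0.125, the smallest that 4 pairs allow). None of 11 cell measures passed the test after Benjamini-Hochberg adjustment (smallest adjusted p = 0.988, exact sign-flip permutation). These measures were 2 Venus channels, iRFP, 2 scatters, total counts, genes detected, mitochondrial and ribosomal protein shares, and well row and column. Median total counts per cell differed by 0.00 ± 0.09 log2 units and median genes detected by 0.01 ± 0.02 (SD, n = 8 pairs). By means in place of medians, total counts differed by 0.045 ± 0.083, higher in the high cells in 5 of 8 pairs. Mean genes detected differed by 0.035 ± 0.045, higher in 6 of 8 (exact sign-flip permutation p = 0.0703, adjusted p = 0.773). The 10 fibroblast markers were all detected, and their summed level was 21329 to 29358 CPM in the high and 23294 to 30089 CPM in the low sums. Endothelial markers summed to at most 1.37 CPM, with medians of 0 for Tie1 and Cdh5 and 0.379 CPM for Pecam1. Epithelial markers summed to at most 10.2 CPM. Leukocyte markers summed to 1.84 to 9.92 CPM in the high and 5.83 to 17.0 CPM in the low sums, with Ptprc, Cd68 and Adgre1 under 1 CPM in each. The rest was Lyz2, the lysozyme gene, which was lower in the high cells in 7 of 8 pairs (-0.80 ± 0.26, SE, edgeR adjusted p = 0.243) and was called lower by DESeq2 (adjusted p = 0.0363). Its part in the results below was not tested.

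Across all genes, 11 of 13227 passed the test once Per2 and Cry1 were set aside, 0.0832% of those tested (edgeR quasi-likelihood test, adjusted p under 0.05). Of these, 7 were higher in the high cells (0.0529%) and 4 lower (0.0302%). On library totals without TMM scaling the split was 5 higher and 1 lower. At an unadjusted p under 0.05 there were 1643 genes (12.4%). No clock gene was among the 11. A sum cannot tell more cells with a transcript from more transcript per cell.

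Among the other Period and Cryptochrome genes, Per3 stood nearest to the threshold. Summed Per3 was 23.8 to 53.1 CPM in the high cells (median 40.3) and 13.2 to 40.8 CPM in the low cells (median 27.6). Bright gates held more Per3 on both sides, so the groups overlapped. Within its own pair the high sum was above the low sum 8 times of 8. Over all genes tested 1.16% did so. The fitted log2 difference was 0.67 ± 0.12 (SE, edgeR adjusted p = 0.0597), so Per3 did not pass. Per1, an early-responding Period gene, was 19.9 to 40.9 CPM in the high cells (median 26.7) and 11.5 to 40.8 CPM in the low cells (median 21.1). It was higher in 7 of 8 pairs, with a log2 difference of 0.45 ± 0.13 (edgeR adjusted p = 0.211). Cry2, the second Cryptochrome, was 16.5 to 37.7 CPM in the high cells (median 24.7) and 11.2 to 26.0 CPM in the low cells (median 17.5). It too was higher in 7 of 8 pairs, the exception being plate 1 bin 4, at 0.43 ± 0.10 (edgeR adjusted p = 0.119).

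**Figure D1:**
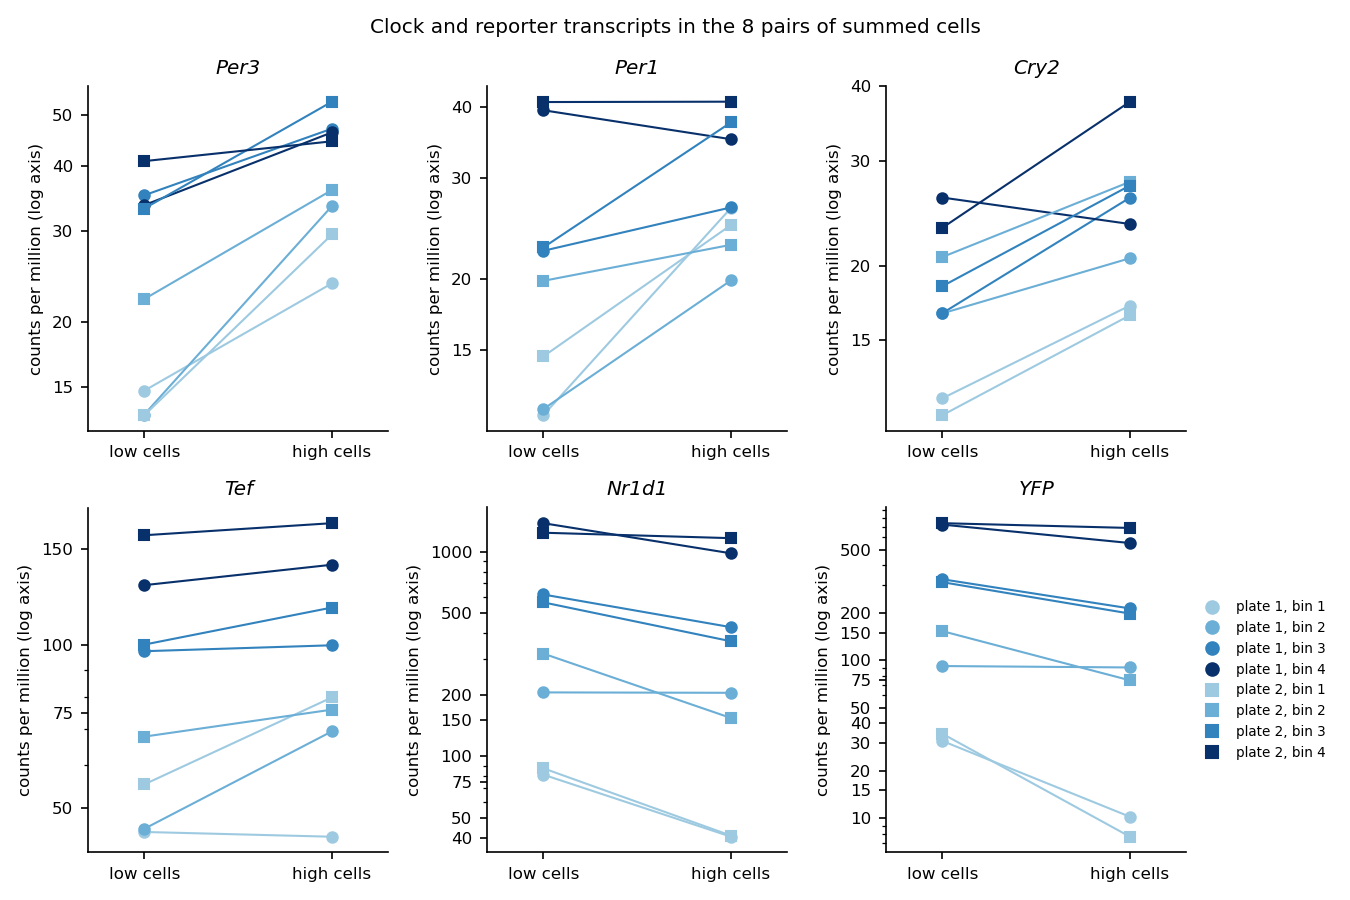
Summed CPM (log axis) of 6 transcripts in the low and high cells, 1 line per plate and Venus bin (8 pairs, circles plate 1, squares plate 2, darker for brighter gates). Per3 lines slope up in all 8 pairs and Nr1d1 and YFP lines slope down in all 8, although none of the 6 passed the test over all genes.

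Nr1d1 and the reporter transcript had values on the other side. Nr1d1 was 40.4 to 1166 CPM in the high cells (median 285) and 81.3 to 1380 CPM in the low cells (median 442). Most of that range was between gates, since the gates were drawn on the Nr1d1 reporter. Inside each pair the high sum was below the low sum, in 8 of 8 pairs, against 1.16% of all genes. The log2 difference was -0.62 ± 0.12 (SE, edgeR adjusted p = 0.0900). The feature named YFP, one of 2 reporter sequences in the count table, was 7.64 to 690 CPM in the high cells (median 144) and 30.9 to 739 CPM in the low cells (median 233). It was also lower in the high cells in 8 of 8 pairs, at -0.76 ± 0.20 (edgeR adjusted p = 0.160). The imaging Venus signal of the same cells differed by 0.00 ± 0.25 log2 units, as given above, and was lower in the high cells in 6 of 8 pairs. The detector Venus signal was lower in 7 of 8 pairs (-0.04 ± 0.29, exact sign-flip permutation p = 0.797). In plate 1 bin 2, where the high cells had the brighter Venus (0.59 log2 units), Nr1d1 differed by -0.02 and YFP by -0.04. In the other 7 pairs the fitted log2 difference was -0.70 for Nr1d1 (edgeR adjusted p = 0.0785) and -0.87 for YFP (0.162). The iRFP transcript, which reports H2B-iRFP, differed by 0.04 ± 0.08.

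No gene passed the test of a change of these differences along the bins (0 by edgeR, with 1127 of 13227 genes, 8.52%, at an unadjusted p under 0.05, and 68 by DESeq2). From bin 1 to bin 4 the log2 difference of Nr1d1 was -1.11 ± 0.05, -0.53 ± 0.73, -0.60 ± 0.08 and -0.27 ± 0.28 (SD over 2 plates, edgeR adjusted p of the change 0.506). For YFP it was -1.93 ± 0.39, -0.54 ± 0.70, -0.65 ± 0.04 and -0.23 ± 0.20 (0.342). Dbp was at 1.03 ± 0.31 in bin 1 and at -0.04, -0.08 and 0.00 in the brighter bins (0.474). The contrast in the chosen genes was 6.63 in bin 1 and 3.22 in bin 4 for Per2 and 7.96 and 2.83 for Cry1 on the log2 scale, and its part in these values was not tested. Between the plates no gene differed in the contrast (0 by edgeR, 391 or 2.96% at an unadjusted p under 0.05, and 0 by DESeq2).

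Thra, which encodes a thyroid hormone receptor and overlaps Nr1d1 on the opposite strand, was 99.1 to 139 CPM in the high and 142 to 174 CPM in the low sums. Its log2 difference was -0.35 ± 0.07 (edgeR adjusted p = 0.0855). The use of strand in counting is not given in the sources used here, so reads of the 2 genes cannot be told apart.

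Of the D-box activators, neither Dbp nor Tef passed. Dbp was 24.5 to 77.1 CPM in the high cells (median 39.8) and 13.5 to 81.2 CPM in the low cells (median 38.5). It was higher in 5 of 8 pairs, with a log2 difference of 0.21 (edgeR adjusted p = 0.625). Tef was 44.3 to 167 CPM (median 89.9) against 45.2 to 159 CPM (median 82.5), higher in 7 of 8 pairs at 0.20 ± 0.07 (edgeR adjusted p = 0.285). Hlf was at or under 2.33 CPM in every sum and was not tested. Among the other repressors, Nr1d2, the paralog of Nr1d1, differed by 0.00 ± 0.16. Bhlhe40 (0.11 ± 0.09) and Bhlhe41 (-0.06 ± 0.14), which compete for E-boxes, and the deubiquitinase gene Usp2 (-0.05 ± 0.22) also had small differences. Ciart, a repressor of CLOCK and BMAL1, had 0.57 ± 0.32 at 1.41 to 14.9 CPM in the high cells. In all, 0 of 11 tested E-box and D-box genes passed. At an unadjusted p under 0.05, 4 were higher and 1 lower, against 6.74% and 5.69% of all genes. Their median log2 difference was 0.20, against 0.00 over all genes. DESeq2 called 4 of them, Per1, Per3 and Cry2 higher and Nr1d1 lower, where over all genes it called 311 (2.35%), 201 higher (1.52%) and 110 lower (0.832%).

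Of the activators, Arntl differed by -0.13 ± 0.13, Clock by 0.03 ± 0.10 and Rora by -0.02 ± 0.18. Nfil3, a repressor at D-boxes, was 11.2 to 30.1 CPM in the high cells (median 14.7) and 4.29 to 20.5 CPM in the low cells (median 12.6), at 0.54 ± 0.20 (edgeR adjusted p = 0.292). Npas2 stayed under 1 CPM and was not tested. Of these 4 tested genes 0 passed by edgeR or DESeq2, and 1 (Nfil3) had an unadjusted p under 0.05, as 12.4% of all genes did. Of 13 tested genes for clock kinases and ubiquitin ligases 0 passed by either tool. Their median was -0.01. At an unadjusted p under 0.05, 2 of 13 were lower (Fbxw7 and Gsk3b) and 0 higher, against 5.69% and 6.74% of all genes. In all 8 pairs 2 of 13 were lower and 0 higher, against 1.16% of all genes in each direction.

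**Figure D2:**
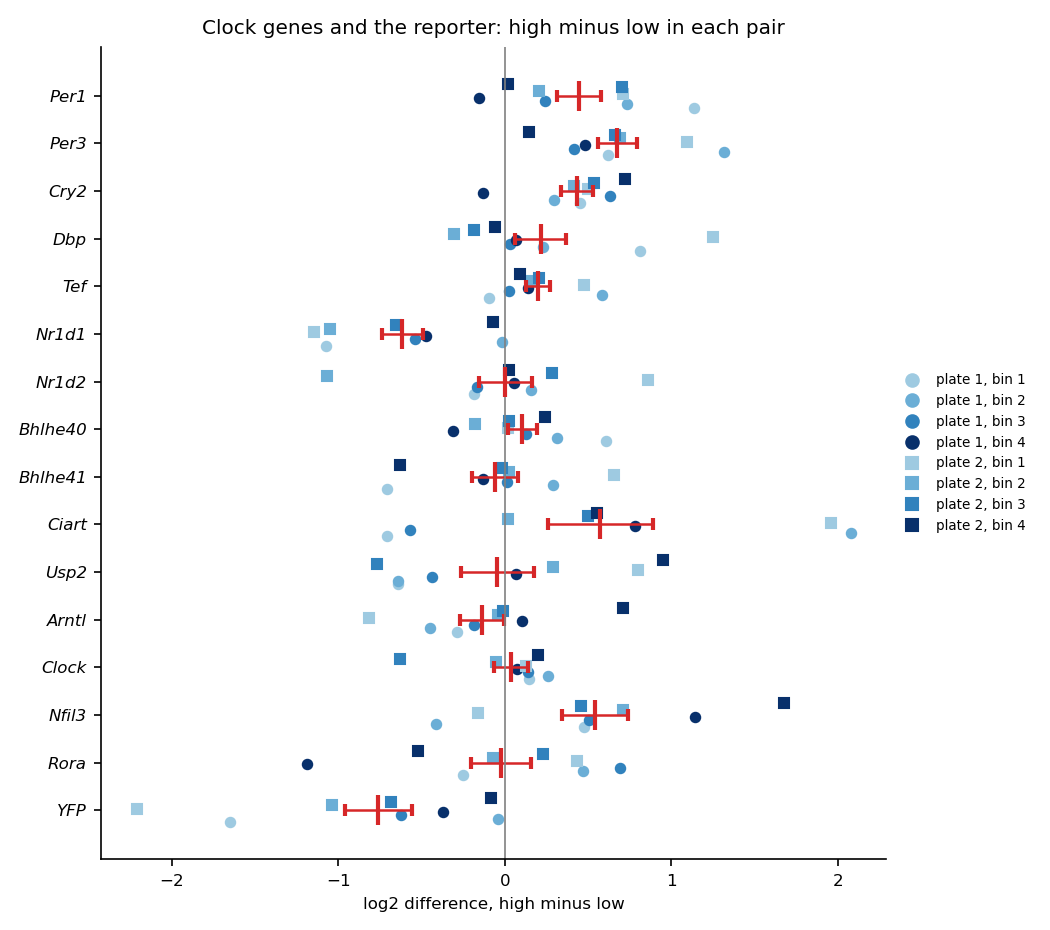
Log2 difference, high minus low, of 15 clock genes and the YFP reporter in each of the 8 pairs (points), with the fitted difference and its SE (red). Per3 points are all above 0 and Nr1d1 and YFP points all below, while Nr1d2, Clock and Rora centre near 0.

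Cells were also split by 1 of the chosen genes alone, which leaves the other out of the split. With the top and bottom 25% taken by Cry1 alone, Per2 differed by 1.40 on the log2 scale (edgeR adjusted p = 0.0585). With both taken by Per2 alone, Cry1 differed by 0.71 (edgeR adjusted p = 0.0730). Neither passed, and both are genes of the rule whose sparse counts share a library depth, so the values are given as a description. The clock genes took different values in the 2 splits, which share cells and were not tested against each other. By Cry1 alone, Nr1d1 was lower in the high cells and passed, at -0.67 ± 0.10 (SE, edgeR adjusted p = 0.0362), whereas by Per2 alone it was -0.29 ± 0.11 (0.576). By Per2 alone, Tef was higher and passed, at 0.44 ± 0.06 (edgeR adjusted p = 0.0435), whereas by Cry1 alone it was -0.05 ± 0.05 (0.745). Dbp was 0.57 by Per2 and -0.24 by Cry1, Nr1d2 0.42 and -0.56, and Arntl -0.34 and 0.19, none past the threshold. Calls numbered 7 of 13349 genes by Per2 (0.0524%) and 9 of 13262 by Cry1 (0.0679%), with 7.14% and 13.8% of genes at an unadjusted p under 0.05. In the split by Per2 alone, cells at 0 counts were tied at the low threshold in 6 of the 8 gates. In plate 1 bin 1 they were also tied at the high threshold, so that its high side held cells with 0 Per2 counts. By Cry1 alone, cells were tied at the low threshold in bin 1 of both plates. Tied cells were taken in order of well row and then well column. Well row was not compared between the sides of these splits, and its part in their calls was not tested.

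**Figure D3:**
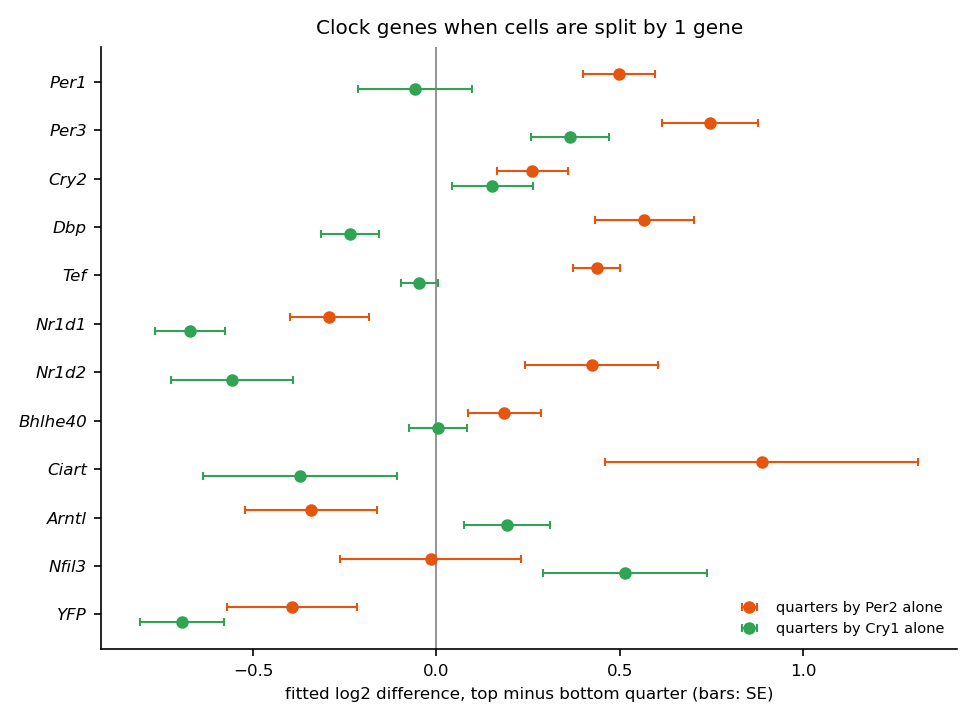
Fitted log2 difference, top minus bottom 25% of cells, with its SE for 11 clock genes and YFP when cells were split by Per2 alone (orange) or by Cry1 alone (green), 8 pairs each. Dbp, Nr1d2, Ciart and Arntl have opposite signs in the 2 splits, and Nr1d1 and YFP are negative in both.

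A split chosen after the data were seen used the difference of the z-scores, Per2 minus Cry1, in place of their mean. By edgeR 0 of 13293 genes passed besides Per2 and Cry1, and 763 had an unadjusted p under 0.05 (5.74%). Cells with Per2 above Cry1 had Dbp at 0.71 (edgeR adjusted p = 0.168), Tef at 0.40 (0.180), Nr1d2 at 0.67 (0.521), Per1 at 0.47 (0.308) and Arntl at -0.42 (0.686) on the log2 scale.

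Of the 7 genes that passed on the higher side, 5 met the naming rule (mean log2 CPM 3 or more, and 1 sign in all 8 pairs). Myc, the proliferation-linked transcription factor gene, was 96.8 to 141 CPM in the high cells (median 124) and 59.2 to 100.1 CPM in the low cells (median 90.0). Myc rose by 0.54 ± 0.07 on the log2 scale (edgeR adjusted p = 0.0257). Dtymk, which encodes thymidylate kinase of dTTP synthesis, was 95.4 to 112 CPM in the high and 70.9 to 87.9 CPM in the low cells. It rose by 0.37 ± 0.06 (edgeR adjusted p = 0.0483). Irx1, a homeobox transcription factor gene, had medians of 14.3 and 7.60 CPM and rose by 0.84 ± 0.12 (edgeR adjusted p = 0.0312). Ipo5, a nuclear import receptor gene, rose by 0.42 ± 0.06 and Ncl, which encodes the nucleolar protein nucleolin, by 0.29 ± 0.05 (both edgeR adjusted p = 0.0483). Reads of Ncl and of small nucleolar RNAs inside it cannot be separated here. The other 2 calls fall outside the naming rule and were chosen after their values were seen: Angptl4, a secreted inhibitor of lipoprotein lipase, at medians of 2.56 and 0.603 CPM (2.16 ± 0.31), and a feature without a symbol (0.94 ± 0.14).

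Of the genes lower in the high cells, Pde4dip had the smallest p of all genes outside the rule. Pde4dip encodes myomegalin, a protein of the Golgi and centrosome that binds phosphodiesterase 4D. It was 112 to 154 CPM in the high cells (median 118) and 148 to 223 CPM in the low cells (median 162), a fall in each pair of between -0.63 and -0.39. The fitted difference was -0.50 ± 0.04 (SE, edgeR adjusted p = 0.0012). Igfbp7, a secreted IGF-binding protein gene, was 78.7 to 191 CPM against 133 to 211 CPM and fell by 0.46 on the log2 scale (SE 0.07). Map1lc3b, which encodes the autophagosome protein LC3B, fell by 0.23 (SE 0.04), and Eif4a2, a translation initiation helicase gene, fell by 0.21 (SE 0.03). All 3 had an edgeR adjusted p of 0.0483. Dhrs3, a retinaldehyde reductase gene, was the next by p at -0.41 ± 0.07 and did not pass (edgeR adjusted p = 0.0584). Igfbp7 overlaps Polr2b, and Pde4dip an antisense gene, on opposite strands.

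The number of calls depended on which pairs entered. Plate 2 alone gave 0 calls, and plate 1 alone gave 1 that was not among the 11. Leaving out 1 pair gave between 1 (without plate 1 bin 1, or plate 2 bin 4) and 37 (without plate 1 bin 3, 9 of them among the 11). Over 24 alternatives Pde4dip passed in 21 and each of the other 8 named genes in 5 to 11.

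Genes of the cell cycle were higher in the high cells as lists, without any single gene passing by edgeR. Of 42 S phase genes 41 had a positive difference and 31 an unadjusted p under 0.05, with a median log2 difference of 0.89, against 49% positive and 6.74% higher at that p over all genes. Of 52 G2/M genes 51 were positive and 22 had an unadjusted p under 0.05, with a median of 1.06. DESeq2 called 23 S phase and 4 G2/M genes, all higher, where it called 1.52% of all genes higher. Mcm4, a subunit of the replicative helicase, had medians of 52.1 CPM in the high and 30.01 CPM in the low cells (1.02 ± 0.19, edgeR adjusted p = 0.0803). Gmnn, the licensing inhibitor geminin, had 16.4 and 10.1 CPM (0.88 ± 0.15, 0.0641). The pairs varied: the S phase median ran from -0.22 in plate 1 bin 3 to 1.86 in plate 1 bin 4, and the G2/M median from -0.76 in plate 1 bin 2 to 3.45 in plate 1 bin 1. Of 12 G1 and checkpoint genes 5 were higher and 2 lower at an unadjusted p under 0.05, against 6.74% and 5.69% of all genes. DESeq2 called 2 of the 12 higher (Wee1 and Ccne1) and 0 lower. Ccne1, which encodes cyclin E1 of the step into S phase, had 19.8 and 11.4 CPM and was higher in 8 of 8 pairs (0.68 ± 0.14, edgeR adjusted p = 0.0890). Cdkn1b, which encodes the cyclin-dependent kinase inhibitor p27, was lower in 8 of 8 (-0.14 ± 0.05, 0.266).

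Cells counted as cycling were more frequent among the high than among the low cells. A cell was counted as cycling if its mean log2(CPM + 1) was at least 3.5 over the S phase list or at least 3.2 over the G2/M list, limits chosen after the data were seen. Of 767 cells, 115 were above a limit and 24 lay within 0.2 of one. Of the high cells 40 of 191 were above a limit (20.9%, 95% exact binomial interval 15.4 to 27.4%), of the low cells 15 of 191 (7.85%, 4.46 to 12.6%), and of the cells between them 60 of 385 (15.6%). The intervals cover counting error only. The share was higher on the high side in 7 of 8 pairs and equal in 1. The mean difference was 13.1 ± 10.4 percentage points (SD, n = 8 pairs, exact two-sided sign-flip permutation p = 0.0156, where 0.0078 is the smallest possible). This comparison was not planned and its limits were set on these data, so the p-value is a description.

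**Figure D4:**
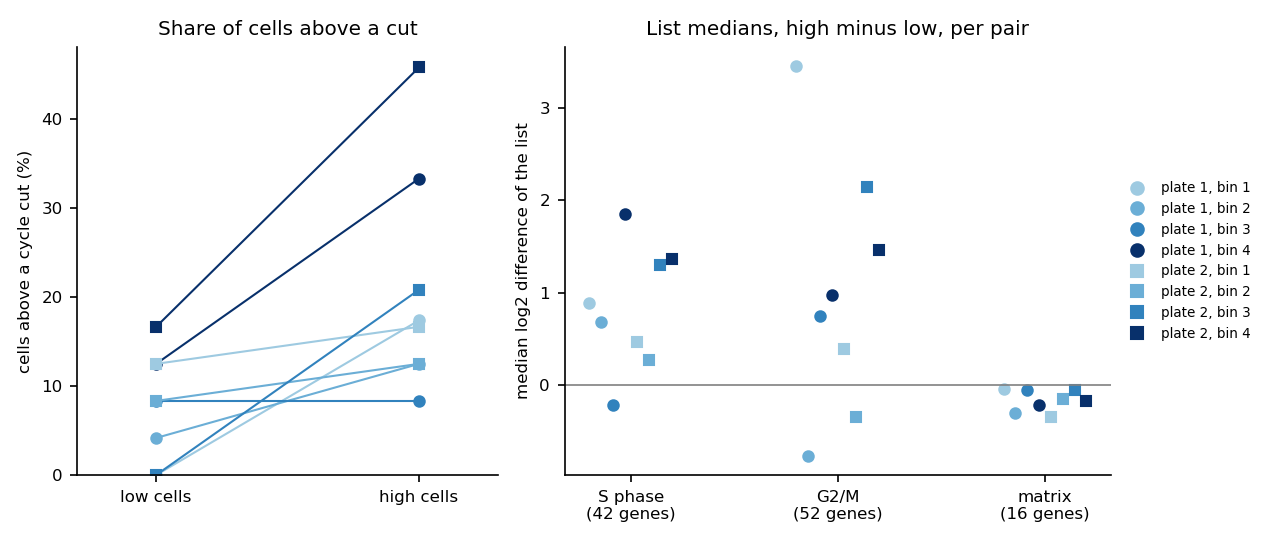
Left, percent of low and high cells above a cell cycle limit, 1 line per pair. Right, median log2 difference (high minus low) of the tested S phase, G2/M and matrix genes in each pair: most S phase and G2/M points lie above 0, with 1 and 2 exceptions, and all 8 matrix points lie below.

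When the cells above a limit were left out and the rest scored and split again, the S phase median was -0.03 and the G2/M median -0.05, as the removal is made on these same genes. Then 2 genes passed of 12854 (0.0156%). At an unadjusted p under 0.05 were 895 genes (6.96%), 484 higher (3.77%) and 411 lower (3.2%), and 50.3% of genes were positive. One was Per3, higher by 0.80 ± 0.10 (SE, edgeR adjusted p = 0.0067), and the other Pde4dip, lower by 0.46 on the log2 scale (0.0072). Nr1d1 was at -0.67 ± 0.10 (0.0628) and YFP at -0.84 ± 0.20 (0.335). Myc was at 0.52 without passing (edgeR adjusted p = 0.115), whereas Dtymk (0.19), Ncl (0.17) and Map1lc3b (-0.14) were smaller by more than 1.5 times. All 11 calls had the same sign as in the full set.

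Of 16 tested genes for matrix and collagen processing 15 had a negative difference, and 12 of them an unadjusted p under 0.05, against 5.69% lower at that p over all genes. None passed by edgeR, and DESeq2 called 3 lower and 1 higher, against 0.832% and 1.52% of all genes. The list's median was small, at -0.16. Plod2, a collagen lysyl hydroxylase gene, had medians of 95.9 CPM in the high and 117 CPM in the low cells (-0.31 ± 0.07, edgeR adjusted p = 0.119). Lox, the collagen cross-linking oxidase gene, had 711 and 846 CPM (-0.41 ± 0.14, 0.249), and Col5a2 808 and 1015 CPM (-0.23 ± 0.06, 0.169). Col3a1 was the exception, at 1329 and 1024 CPM (0.28 ± 0.09, 0.223). Cells above a cycle limit were more frequent on the high side, as given above, and their part in this was not tested. Without them 15 of 16 matrix genes were still negative with a median of -0.09, and 1 was lower at an unadjusted p under 0.05, where 3.2% of all genes were.

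Immediate early genes, which respond to serum and stress within minutes, did not move together. Of 20 tested, 1 passed (Myc), and at an unadjusted p under 0.05 there were 5 higher and 5 lower, with a median of 0.00. Over all genes 6.74% were higher and 5.69% lower at that p, both smaller shares than in this list. DESeq2 called 3 higher and 2 lower (Fos, Fosl2, Ier2, Atf3 and Myc), where it called 1.52% of all genes higher and 0.832% lower. Atf3, a stress-induced transcription factor gene, had 5.51 and 1.18 CPM and was higher in 8 of 8 pairs (1.81 ± 0.44, edgeR adjusted p = 0.134). Fosl2 was also higher in 8 of 8 (0.30 ± 0.09, 0.209). Fos had 22.0 and 32.4 CPM (-0.51 ± 0.15, 0.199) and Junb 51.2 and 75.2 CPM (-0.55 ± 0.14, 0.153).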

How the data were processed

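Gene counts of 768 cells were deposited as whole numbers, not normalized, which the authors made with STAR 2.7.11a, SAMtools, bedtools and HTSeq on GRCm39/mm39, per the submitters' processing notes. The use of strand and of molecular identifiers is not given in the sources used here. The deposited sorting record gave fluorescence and scatter intensity in arbitrary units, with the gate and well of each cell. The 33757 features included 2 reporter sequences, and 24902 matched a symbol. Features without a symbol held 1.07% of counts. Wells held single sorted cells per the labels, so doublets were not called. Totals of passing cells ranged from 2100 to 1618022 counts (median 842810). Cell names carry their plate, and barcode sequences were not compared between the plates.

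Counts of the high and the low cells were summed per plate and gate. Genes passing filterByExpr entered a quasi-likelihood test (edgeR 4.0.16, R 4.3.3, TMM, each pair as a block, 7 residual degrees of freedom, Benjamini-Hochberg adjustment over all genes, threshold 0.05). High and low sums of a pair share their plate, gate and well columns, which is the pairing. A gene was counted as called without Per2 and Cry1. Single-pair log2 differences used a prior count of 2. Cell measures were compared by exact sign-flip tests over pairs (scipy). Promoters were matched for 24 of 28 symbols. The test was tried on simulated counts with 200 changed genes. Named were up to 12 genes per direction by size of the log2 difference among called genes whose mean log2 CPM reached 3 and that had 1 sign in all 8 pairs. Where fewer than 5 were called, the 5 with the smallest p were given, which added Dhrs3 as a value. The clock list and the reporters were also named. Predicted genes were counted only. Alternatives were DESeq2 1.42.0, limma 3.58.1 on mean log2(CPM + 1), other scalings, filters, splits, cells and left-out pairs or plates. The members and lists were chosen with earlier results of these data known.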

Additional observations from a re-analysis of the deposited data

Results flagged for a closer look

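Among 40 sets of 8 pair differences, 3 had 1 pair far from the rest by Dixon's criterion, which chance meets in about 1 set in 20. For Clock the difference in plate 2 bin 3 was -0.63 on the log2 scale, and the other 7 pairs lay between -0.05 and 0.26. For the imaging Venus signal the difference in plate 1 bin 2 was 0.59, and the others lay between -0.24 and 0.05. For the detector Venus signal the same pair had 0.65, and the others lay between -0.27 and -0.07.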

How the results depend on the processing

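Against 11 calls, DESeq2 gave 311, no filter on low counts 240, library totals without TMM 6, the top and bottom 33% of cells 81, a split at the median 1, cells thinned to 500000 counts 26, limma on mean log2(CPM + 1) 104, and sums per plate (2 pairs) 333. All 11 were among the calls of DESeq2, no filter, the 33% split and the plate sums. Among the 11 were 6 calls without TMM, 7 of the thinned cells and 5 by limma. Scores from Per2 alone gave 7 calls and scores from Cry1 alone 9, in each case 2 of them among the 11. Fits without 1 plate gave 0 to 1 with 0 among the 11, and fits without 1 pair 1 to 37. Of alternatives added after the data were seen, leaving out cells above a cycle limit gave 2, and keeping only cells with both chosen transcripts detected gave 0. Without the replicate block, so that pairing was ignored, 5 genes were called, 2 of them among the 11. All 11 kept their sign in each alternative except Ncl (-0.0101 with both transcripts detected). Changes along the bins numbered 68 by DESeq2 and 0 to 3 with 1 bin left out. In the splits by 1 gene, DESeq2 called Per2 (1.41, split by Cry1 alone) and Cry1 (0.71, split by Per2 alone). Both are genes of the rule with sparse counts that share a library depth, so these calls are a description and not findings. For the 29 genes followed, 472 of 696 values kept sign and side of the threshold.

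Signs turned in clock genes that had not passed, and in iRFP. By Cry1 alone these were Arntl 0.193, Ciart -0.373, Dbp -0.236, Nr1d2 -0.559, Per1 -0.0588, Tef -0.0469 and Usp2 0.0863. By Per2 alone they were Bhlhe41 0.138, Nfil3 -0.0159 and Usp2 0.163. With both transcripts detected they were Arntl 0.470, Ciart -0.437, Cry2 -0.112 and Rora 0.360. The upper and lower 33% gave Bhlhe41 0.0344 and Usp2 0.186, the split at the median Bhlhe41 0.0480 and Usp2 0.123, and thinning Nr1d2 -0.0429 and Usp2 0.136. Nr1d2 was -0.0351 by limma, -0.000106 without a filter and -0.0062 without cycling cells, where Rora was 0.0737. Usp2 was 0.0695 without the block and 0.0429 in plate sums. With 1 plate or 1 pair left out the ranges were -0.116 to 0.145 for Nr1d2, -0.159 to 0.0261 for Bhlhe41, -0.418 to 0.336 for Usp2, -0.0873 to 0.155 for Clock, -0.123 to 0.143 for Rora and -0.0166 to 0.0740 for iRFP. The cause of these changes was not tested. Per2 had 0 counts in 366 of 767 cells and Cry1 in 164, which limits how finely cells could be ranked.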

Other observations

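Other gene groups showed small differences, and 0 of their genes passed by edgeR. Of 14 tested genes of glycolysis and hypoxia 10 were positive, with a median log2 difference of 0.09, and 3 had an unadjusted p under 0.05, against 49% and 12.4% of all genes. These were Ndrg1, a hypoxia-responsive gene (131 and 103 CPM, 0.36 ± 0.09, edgeR adjusted p = 0.148), Vegfa, the vascular growth factor gene (0.34 ± 0.11, 0.249), and Pdk1, a kinase gene that restrains pyruvate oxidation (0.20 ± 0.08, 0.325). DESeq2 called Ndrg1. Of 9 tested glucocorticoid targets 2 were higher and 1 lower at an unadjusted p under 0.05, against 6.74% and 5.69% of all genes. Klf9, a transcription factor gene, was lower in 8 of 8 pairs at -0.21 ± 0.05 (edgeR adjusted p = 0.118) and was called by DESeq2. Sgk1, a serum- and glucocorticoid-induced kinase gene, was at 0.32 ± 0.14 (0.357).

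Of 8 heat shock genes, 12 genes of ER stress, 12 genes of cholesterol synthesis and uptake and 2 cold-inducible RNA-binding protein genes, 0 had an unadjusted p under 0.05 or a DESeq2 call, with medians of 0.04, 0.08, -0.04 and -0.04. Of 92 cytosolic ribosomal protein genes 40 were positive, with a median of 0.00. At an unadjusted p under 0.05, 4 were higher and 1 lower, against 6.74% and 5.69% of all genes. Of 16 mitochondrial transcripts 3 were positive, with a median of -0.06 and 2 lower at that p. Of 6 genes that earlier results of these same data had tied to the Venus axis, 3 were lower at an unadjusted p under 0.05. The share over all genes was 5.69%, and the median of the 6 was -0.32. Because these cells also gave the list, the count is a description and not independent support. Itga11, an integrin subunit gene, had 11.98 CPM in the high and 20.3 CPM in the low cells (-0.61 ± 0.25, edgeR adjusted p = 0.351).

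In the split by Cry1 alone, genes besides Nr1d1 that passed included Slfn9 (1.61 ± 0.18, edgeR adjusted p = 0.0084), a Schlafen family gene, Atad2, an S phase chromatin gene (1.10 ± 0.15, 0.0255), and Pde4dip (-0.46 ± 0.06, 0.0167). In the split by Per2 alone, they included Cst3, which encodes the protease inhibitor cystatin C (-0.31 ± 0.04, 0.0372), Srpx2, a secreted matrix protein gene (-0.95 ± 0.13, 0.0372), and Pde4dip (-0.50 ± 0.07, 0.0435). These were picked after their values were seen, and tied cells in both splits were taken in well order, as given above.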
